A study of Mus musculus with 6 samples.

Results

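The subject was a set of 10 genes that mark large peritoneal macrophages, measured in CD11B+ cells of the injured mouse kidney. The members were Gata6, Prg4, Serpinb2, Saa3, Alox15, F5, Icam2, Cxcl13, Garnl3 and Timd4, taken by symbol from the 46603 genes of the deposited raw counts. The set was chosen by CPM values of these same libraries, because Prg4, Saa3 and Serpinb2 were much lower in 1 genotype, so the genotype levels of all members are a description, with no test. Male mice aged 10 to 12 weeks were studied on day 3 after ischemia-reperfusion injury (IRI-AKI), made by clamping the vessels of both kidneys for 28 minutes. The 3 PTEC DN RAR mice carried PEPCK CRE and Rosa26-LSL-RARaT403X, a silent allele of a truncated, dominant-negative retinoic acid receptor alpha that Cre switches on. The 3 Cre- control mice carried the same Rosa26 allele without PEPCK CRE, and, per the study's methods, this allele had been bred to homozygosity. PEPCK-Cre recombines in proximal tubular epithelial cells (PTECs), so the allele was aimed at PTECs and not at CD11B+ cells, although proximal tubule transcripts were present in the preparations, as given further on. Kidneys were perfused, digested whole and bound to CD11B antibody on magnetic beads, a selection that holds monocytes, macrophages, granulocytes and other CD11B+ cells, and 1 polyA library per mouse was counted.

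Large peritoneal macrophages are long-lived resident cells of the body cavities. The transcription factor GATA6, induced in them by retinoic acid, sets much of their gene program, which includes secreted proteins, coagulation factors, lipoxygenase and receptors for dying cells. Such cells can cross from the cavity onto the surface of an injured organ without passing through the blood. Several of the genes are also used elsewhere, Icam2 by endothelium, Gata6 by mesothelium and smooth muscle, and Saa3 by many inflamed cells, so a level in whole CD11B+ preparations is not a count of these macrophages.

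Library totals ran from 29318041 to 46517005 reads in genes, and 3 reads in a gene stood for 0.0636 to 0.101 CPM (counts scaled to the size of the library, after TMM). Replicate 2 of the Cre- controls stood apart for these genes, as set out further on, and each member is therefore given with and without it. Rara, the gene whose mutant form the allele carries, was at 45.4, 35.3 and 45.1 CPM in the controls and 30.7, 31.5 and 37.6 CPM in PTEC DN RAR mice, where the transgene has no row of its own. In bulk RNA, fewer cells of a type and less RNA per cell cannot be told apart. Mitochondrial genes took 5.03 to 8.77% of reads in controls and 10.4 to 12.1% in PTEC DN RAR mice, and their part in the differences was not tested.

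RefSeq promoter windows on GRCm38.p6 were at hand for 6 members (Serpinb2, Saa3, F5, Cxcl13, Garnl3 and Timd4). The windows hold the 250 bases before the transcript start and are shown 5′ to 3′ on the strand of the gene. Saa3 and Serpinb2 are shown as members whose levels did not overlap between genotypes, and Cxcl13 as a member that varied as widely but overlapped. Capitals mark matches, on either strand, to a GATA motif (the hexamer AGATAA, its variant AGATAG, the hexamer TGATAA or its variant TGATAG), a C/EBP motif (TTGCNNAA) or the AGGTCA hexamer that retinoic acid receptors bind. The windows lie at chr7:46715677-46715926 on the minus strand for Saa3, chr1:107511173-107511422 on the plus strand for Serpinb2 and chr5:95956689-95956938 on the plus strand for Cxcl13.
Saa3: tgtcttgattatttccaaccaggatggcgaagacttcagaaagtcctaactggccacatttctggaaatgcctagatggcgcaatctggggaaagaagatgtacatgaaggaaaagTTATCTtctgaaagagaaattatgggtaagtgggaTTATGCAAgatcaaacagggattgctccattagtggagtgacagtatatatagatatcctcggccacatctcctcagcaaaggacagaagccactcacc
Serpinb2: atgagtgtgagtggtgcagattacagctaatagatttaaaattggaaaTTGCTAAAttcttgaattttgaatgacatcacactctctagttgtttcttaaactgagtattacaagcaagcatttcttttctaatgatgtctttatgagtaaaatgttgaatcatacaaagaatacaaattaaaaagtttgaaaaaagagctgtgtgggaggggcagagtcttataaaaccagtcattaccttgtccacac
Cxcl13: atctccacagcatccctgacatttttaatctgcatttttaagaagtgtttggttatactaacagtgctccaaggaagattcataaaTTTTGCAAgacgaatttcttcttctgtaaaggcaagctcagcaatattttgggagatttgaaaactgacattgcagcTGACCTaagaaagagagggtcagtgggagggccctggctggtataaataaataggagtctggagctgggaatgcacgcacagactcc
The Saa3 window holds a GATA match that begins 134 bases before the start and a C/EBP match at 99 bases. The Serpinb2 window shown holds a C/EBP match at 202 bases, and the Cxcl13 window a C/EBP match at 164 bases and the AGGTCA hexamer at 87 bases. RefSeq gives Serpinb2 another start, whose window at chr1:107511260-107511509 holds a GATA match at 41 bases and a C/EBP match at 19 bases and is not shown because it runs into the transcript of the window above. Among the other windows not shown, the F5 and Timd4 windows each hold the hexamer, at 57 and 116 bases, and the Garnl3 windows hold none of these letters. Of 32851 windows of the same length over all genes, 26.5% hold a GATA match, 9.56% a C/EBP match and 14% the hexamer. A match describes letters and is no evidence of binding.

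Gata6, the transcription factor that defines the cell type, was the least abundant member. Its level was 0.512, 3.19 and 0.158 CPM in Cre- controls 1, 2 and 3, from 20, 95 and 5 reads, and 0.550, 0.613 and 0.551 CPM in PTEC DN RAR mice 1, 2 and 3, from 23, 26 and 26 reads. Control 2 was far above the rest, control 3 was the lowest of all libraries, and the 3 PTEC DN RAR libraries lay close together between them. The means were 1.29 ± 1.66 CPM and 0.571 ± 0.0361 CPM (SD, n = 3 each). The log2 fold change was -1.15 (SE 0.84) in which a negative sign means a lower level in PTEC DN RAR mice. Without control 2 the log2 fold change was 0.69 (SE 0.52), with every PTEC DN RAR library above both other controls. The direction for the defining gene thus rested on that library, and the label of the set is used below for the list of genes and not for cells. The gene lies on chromosome 18, and 93 bases of its exons overlap 1010001N08Rik on the opposite strand, whose reads cannot be told apart from its own where counting ignores strand, a setting the sources used here do not give.

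Prg4 encodes proteoglycan 4, or lubricin, a secreted glycoprotein of joint and serosal fluid. It was at 19.2, 101 and 28.0 CPM in controls 1, 2 and 3 and at 7.02, 3.72 and 0.784 CPM in PTEC DN RAR mice 1, 2 and 3. The groups did not overlap, and PTEC DN RAR mouse 3 was the lowest of all. The means were 49.5 ± 45.1 and 3.84 ± 3.12 CPM (SD, n = 3 each). On the log2 scale the difference was -3.69 (SE 0.80), the most negative among the members, and -2.67 (SE 0.63) without control 2. Prg4 lies at chr1:150449412-150466165 on the minus strand, and 204 bases of its exons overlap Tpr on the other strand.

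Saa3, an inducible serum amyloid A protein made at sites of inflammation, was the most abundant member in the controls. It was at 77.2, 276 and 88.8 CPM in the controls and at 22.5, 13.6 and 2.14 CPM in PTEC DN RAR mice. The groups did not overlap here either, and the libraries of each genotype stood in the same order as for Prg4. The means were 147 ± 111 and 12.7 ± 10.2 CPM (SD, n = 3 each). The log2 fold change was -3.53 (SE 0.77), or -2.75 (SE 0.67) without control 2. The gene lies at chr7:46711998-46715700 on the minus strand. Of its 2602 exon stretches of 50 bases, 4.15% also occur in other genes, 9 of them in Saa1, and reads from such stretches are not assigned.

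Alox15, the 12/15-lipoxygenase that oxidizes polyunsaturated fatty acids in resident cavity macrophages and eosinophils, was at 13.6, 70.8 and 14.9 CPM in the controls. In PTEC DN RAR mice it was at 5.50, 4.88 and 1.72 CPM. The groups did not overlap, with control 2 again apart from the other controls. The means were 33.1 ± 32.7 and 4.03 ± 2.03 CPM (SD, n = 3 each). This was a log2 fold change of -3.04 (SE 0.70), or -1.86 (SE 0.40) without control 2. The gene lies at chr11:70344152-70352031 on the minus strand. The 6 eosinophil markers, which include Siglecf, Epx and Prg2, summed to 10.8 to 14.0 CPM in controls and 6.48 to 14.1 CPM in PTEC DN RAR mice. None of the 3 eosinophil markers tested was called lower or higher, beside 40.6% of all genes tested called in either direction.

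Serpinb2, plasminogen activator inhibitor 2, was at 3.51, 17.1 and 5.42 CPM in the controls and 2.08, 1.23 and 1.78 CPM in PTEC DN RAR mice. Its groups did not overlap either, but its PTEC DN RAR libraries lay closer together than those of Prg4, Saa3 and Alox15 and mouse 3 was not the lowest. The means were 8.69 ± 7.38 and 1.69 ± 0.433 CPM (SD, n = 3 each). The log2 fold change was -2.35 (SE 0.55), or -1.43 (SE 0.30) without control 2. The gene lies at chr1:107511423-107535478 on the plus strand. Its exons overlap those of Serpinb10 on the same strand by 291 bases, and 10.4% of its stretches of 50 bases are shared with that gene. Serpinb10 itself was at 2.52 ± 0.716 and 2.57 ± 0.304 CPM (SD, n = 3 each).

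**Figure D1:**
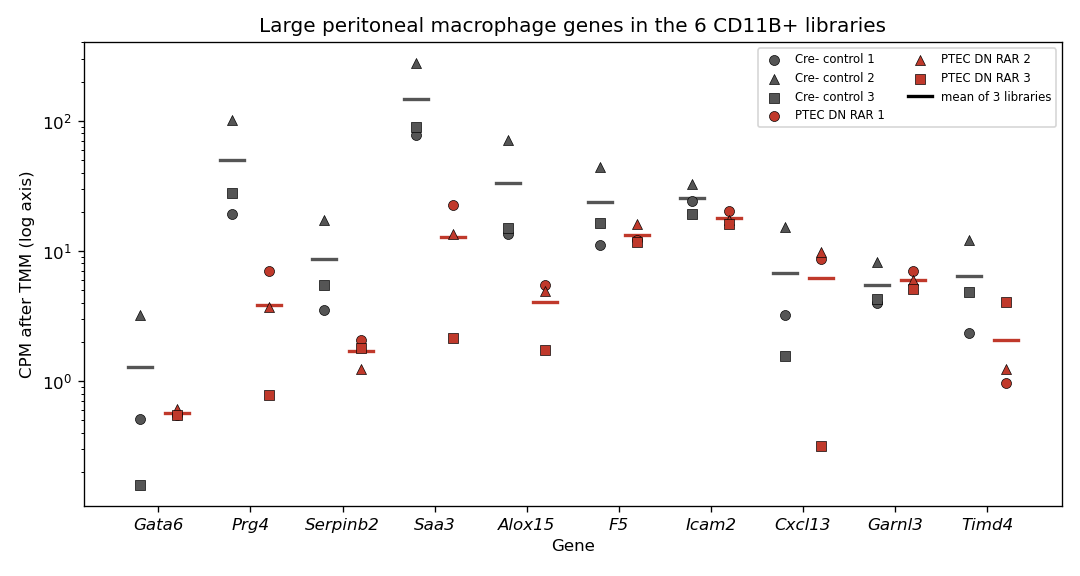
CPM after TMM scaling (log axis) of the 10 genes in the 3 Cre- control libraries (grey) and the 3 PTEC DN RAR libraries (red), with symbols for replicates and bars for the mean of 3 libraries. Control 2 (grey triangle) is the highest point of every gene, and Prg4, Serpinb2, Saa3 and Alox15 have all red points below all grey points.

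The 6 other members overlapped between genotypes. F5, coagulation factor V, was at 11, 44.1 and 16.3 CPM in the controls and 12.1, 16.1 and 11.8 CPM in PTEC DN RAR mice, so that only control 2 lay outside a common range of 11 to 16.3 CPM. Its log2 fold change was -0.83 (SE 0.44) with control 2 and -0.08 (SE 0.21) without it. F5 lies at chr1:164151838-164220277 on the plus strand and shares 2.89% of its stretches of 50 bases with the antisense gene Gm16548.

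Timd4, or TIM-4, is a receptor for phosphatidylserine that binds dying cells. It was at 2.33, 12.2 and 4.78 CPM in the controls and 0.956, 1.23 and 4.03 CPM in PTEC DN RAR mice. Here PTEC DN RAR mouse 3, the lowest for Prg4 and Saa3, was the highest of its genotype and lay above control 1. On the log2 scale the difference was -1.62 (SE 0.67), and -0.81 (SE 0.60) without control 2. Leaving out PTEC DN RAR mouse 3 instead gave -2.59. Timd4 lies at chr11:46810800-46844332 on the plus strand.

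Cxcl13 is a chemokine that draws B cells to the serosal cavities. It was at 3.23, 15.4 and 1.55 CPM in the controls and 8.63, 9.73 and 0.318 CPM in PTEC DN RAR mice. It had the widest range within PTEC DN RAR mice, 30.6-fold, with mouse 3 alone at the low end. The log2 fold change was -0.10 (SE 1.01), and 1.32 (SE 1.02) without control 2. It was 0.42 when PTEC DN RAR mouse 3 was left out. Cxcl13 lies at chr5:95956951-95961068 on the plus strand. The 8 B cell markers summed to 25.4 to 33.3 CPM in controls and 38.2 to 53.2 CPM in PTEC DN RAR mice. Of the 7 tested 2 rose, beside 23.6% of all genes tested.

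Icam2, an adhesion molecule of leukocytes and endothelium that serves as a surface marker of these macrophages, was at 24.0, 32.7 and 19.4 CPM in the controls. In PTEC DN RAR mice it was at 20.1, 17.3 and 16.1 CPM, overlapping control 3. This was a log2 fold change of -0.51 (SE 0.19), and -0.33 (SE 0.15) without control 2. The 8 endothelial markers all rose, from sums of 81.7 to 119 CPM to sums of 240 to 289 CPM. Of all genes tested, 23.6% rose. The part of endothelium in the Icam2 level was not tested. Icam2 lies at chr11:106377656-106388075 on the minus strand.

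Garnl3, a member of the Rap GTPase-activating protein family, was at 4.0, 8.22 and 4.28 CPM in the controls and 6.95, 5.96 and 5.11 CPM in PTEC DN RAR mice. It was the sole member with a higher mean in PTEC DN RAR mice, with a log2 fold change of 0.13 (SE 0.28). Without control 2 it was 0.50 (SE 0.20), with all PTEC DN RAR libraries above controls 1 and 3, and -0.06 without control 1 and -0.07 without control 3. Garnl3 lies at chr2:32986224-33131654 on the minus strand.

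In the mean, 9 of 10 members were lower in PTEC DN RAR mice, and in 4 of 10 every PTEC DN RAR library lay below every control. Over the 15440 genes tested, 24.2% had all PTEC DN RAR libraries below all controls and 29.2% had all above, 53.4% in either direction, and since the members were proposed from this contrast the 4 of 10 is read no further. The median log2 fold change of the members was -1.38, against 0.04 over all genes tested. Without control 2 it was -0.57, with 7 members lower and 3 higher, while 4 members still did not overlap in the lower direction and 2, Gata6 and Garnl3, did not overlap in the higher direction. Without control 2 these shares over all genes tested were 27.7% lower and 32.7% higher. All 10 members passed the filter on low counts.

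**Figure D2:**
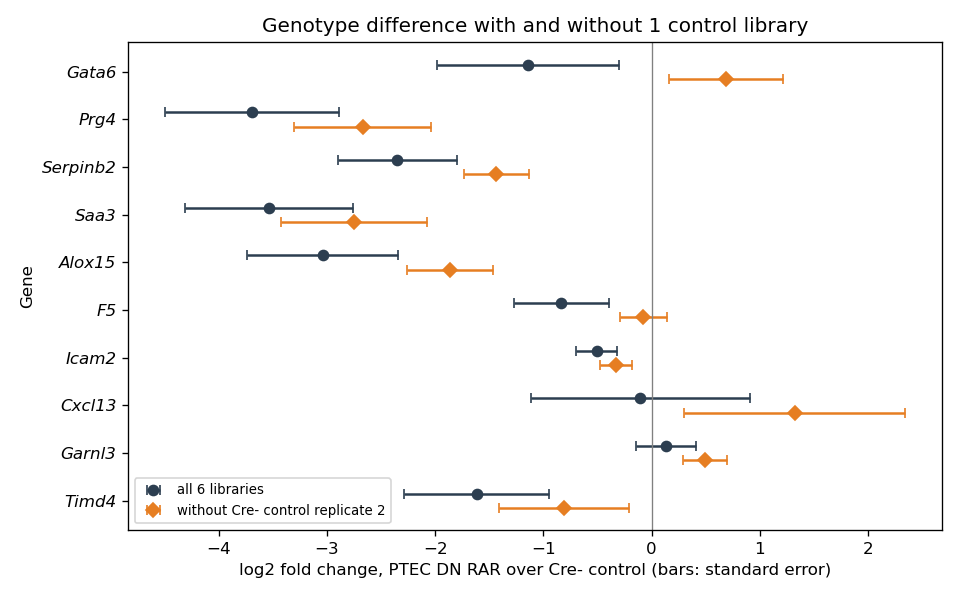
log2 fold change of each gene, PTEC DN RAR over Cre- control, with bars for the standard error, for all 6 libraries (circles) and without Cre- control replicate 2 (diamonds). Prg4, Saa3, Alox15 and Serpinb2 stay below -1.4 without that library, whereas Gata6 goes from -1.15 to 0.69 and Cxcl13 from -0.10 to 1.32.

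Control 2 was the highest of all 6 libraries for 10 of 10 members, which held for 17.2% of all genes tested. Among the 3 controls alone it was the highest for 10 of 10 members, against 31.5% of all genes tested. It exceeded the mean of controls 1 and 3 at least 2-fold for 8 of 10 members, against 2.21% of all genes. The ratio ran from 1.51 for Icam2 and 1.99 for Garnl3 to 6.43 for Cxcl13 and 9.5 for Gata6, with a median of 3.63 over the members and 0.98 over all genes. The comparisons with the other controls lie within 1 genotype, whereas the rank over 6 libraries also sets control 2 against PTEC DN RAR mice. The value of control 2 also enters the fold changes that proposed the set.

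Among 13021 genes with a mean of at least 1 CPM, 95 were at least 2-fold higher in control 2 than in the other controls. Of the 25 with the highest ratio, 7 were members, 3 were other cavity macrophage genes and 3 were mesothelial markers. These rankings were drawn up after the values were seen. Msln, or mesothelin, a surface protein of the mesothelial cells that line the cavities and the organs within them, had the highest ratio, 18.2. It was at 0.384, 4.36 and 0.0950 CPM in the controls and 0.287, 0.424 and 0.530 CPM in PTEC DN RAR mice. Upk3b, another mesothelial gene, was at 2.15, 8.86 and 0.919 CPM in the controls and 3.87, 3.72 and 4.34 CPM in PTEC DN RAR mice. Of the 6 mesothelial markers tested, 5 were at least 2-fold higher in control 2 than in the other controls. The sum of the 9 measured was not, at 64.7, 58.9 and 36.1 CPM in the controls and 63.9 to 110 CPM in PTEC DN RAR mice. In this sum Krt7, which tubules also express, averaged 36 CPM in the controls. The part of cells or RNA from the kidney surface in the level of control 2 was not tested.

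**Figure D3:**
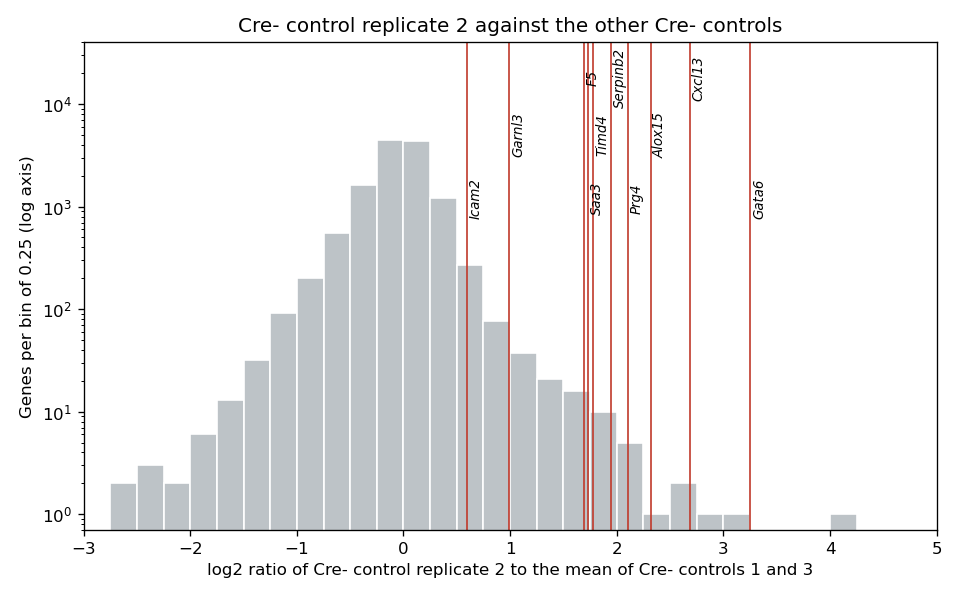
Number of genes (log axis) with a mean of at least 1 CPM in bins of the log2 ratio of Cre- control replicate 2 to the mean of Cre- controls 1 and 3, with red lines for the 10 members. All red lines lie right of 0, from Icam2 at a ratio of 1.51 to Gata6 at 9.5, and Gata6, whose mean is under 1 CPM, is not counted in the bars.

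Among PTEC DN RAR mice, mouse 3 was the lowest for 7 of 10 members. The share of all genes with mouse 3 lowest was not counted. Over all genes tested the median ratio of mouse 3 to the mean of mice 1 and 2 was 0.997. The gap was small for Icam2, at 16.1 CPM against 17.3 CPM in mouse 2, and for F5, at 11.8 CPM against 12.1 CPM in mouse 1. Mouse 3 was lower than mouse 1 by 10.5-fold for Saa3, 8.96-fold for Prg4 and 27.1-fold for Cxcl13, but by 1.17-fold for Serpinb2. For Timd4 mouse 3 was the highest. After the mean of each genotype was subtracted from log2 CPM, Pearson r between pairs of members over the 6 libraries had a median of 0.73 over 45 pairs, from -0.28 for Cxcl13 and Timd4 to 0.98 for Prg4 and Saa3. These values are a description over 6 libraries in which control 2 carries much of the spread. The coefficient of variation was larger in the controls than in PTEC DN RAR mice for all members but Saa3 and Timd4. It was 129% against 6.32% for Gata6 and 75.7% against 80.1% for Saa3.

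Per kilobase of exon, which allows levels to be set between genes, Saa3 led in the controls at 56.5 CPM per kilobase. Alox15 at 13.5, Icam2 at 13.3 and Prg4 at 11.6 CPM per kilobase followed, with overlapping ranges. The place of Alox15 above Icam2 rested on control 2. In controls 1 and 3 Icam2 was at 12.6 and 10.2, Alox15 at 5.52 and 6.05 and Prg4 at 4.48 and 6.54 CPM per kilobase. Cxcl13 at 5.84, Serpinb2 at 3.70, F5 at 3.21 and Timd4 at 2.96 CPM per kilobase also overlapped each with its neighbour. Garnl3 at 0.445 and Gata6 at 0.198 CPM per kilobase came last. Neighbours in this order were separate at Saa3 over Alox15 and at Timd4 over Garnl3. In PTEC DN RAR mice the order was Icam2 (9.35), Cxcl13 (5.41), Saa3 (4.89), F5 (1.79), Alox15 (1.64), Timd4 (0.952), Prg4 (0.898), Serpinb2 (0.721), Garnl3 (0.486) and Gata6 (0.0877 CPM per kilobase), and Garnl3 and Gata6 were the sole neighbours whose ranges did not overlap.

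Other genes of cavity macrophages, 23 in number, were tested with edgeR's quasi-likelihood test and Benjamini-Hochberg adjustment over all genes. In PTEC DN RAR mice 15 fell and 1 rose, where 17.1% of all genes tested fell and 23.6% rose, 40.6% in either direction, and the median log2 fold change was -0.86. Marco, a scavenger receptor, was at 14.3, 48.9 and 19.1 CPM in the controls and 4.16, 2.36 and 3.14 CPM in PTEC DN RAR mice, a log2 fold change of -3.09 (SE 0.46, adjusted p = 0.00147). Cd5l, a secreted macrophage survival protein, fell by 2.76 (SE 0.78, adjusted p = 0.0223) on the log2 scale, from 20.9, 60.8 and 12.4 CPM to 9.37, 3.68 and 0.932 CPM, and its adjusted p was 0.0694 without control 2. Naip1, an inflammasome sensor with close paralogs that could split its reads, fell by 2.63 (SE 0.43, adjusted p = 0.0022). Slpi, a secreted inhibitor of leukocyte proteases, fell by 2.00 (SE 0.38, adjusted p = 0.00435).

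Aspa, aspartoacylase, was the cavity macrophage gene that rose, by 1.46 on the log2 scale (SE 0.25, adjusted p = 0.00288), from 3.20, 3.39 and 3.90 CPM to 6.09, 12.0 and 10.8 CPM. All 10 proximal tubule markers rose as well, and the part of tubule cells in the Aspa level was not tested. Of the 23 genes, 9 were at least 2-fold higher in control 2 than in the other controls, among them Marco and Cd5l. Several are not particular to cavity macrophages. Fn1, fibronectin, fell from 1387 ± 281 to 398 ± 124 CPM (SD, n = 3 each). The log2 fold change was -1.80 (adjusted p = 0.000933). Its level in control 2 was 1.40 times the mean of the other controls, and monocytes and stroma also make fibronectin. The 8 monocyte markers summed to 2451 to 2690 CPM in controls and 1213 to 1383 CPM in PTEC DN RAR mice. By the same test 6 fell and none rose, beside 17.1% and 23.6% of all genes tested. The part of monocytes in the falls of Fn1 and the other cavity macrophage genes was not tested.

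**Figure D4:**
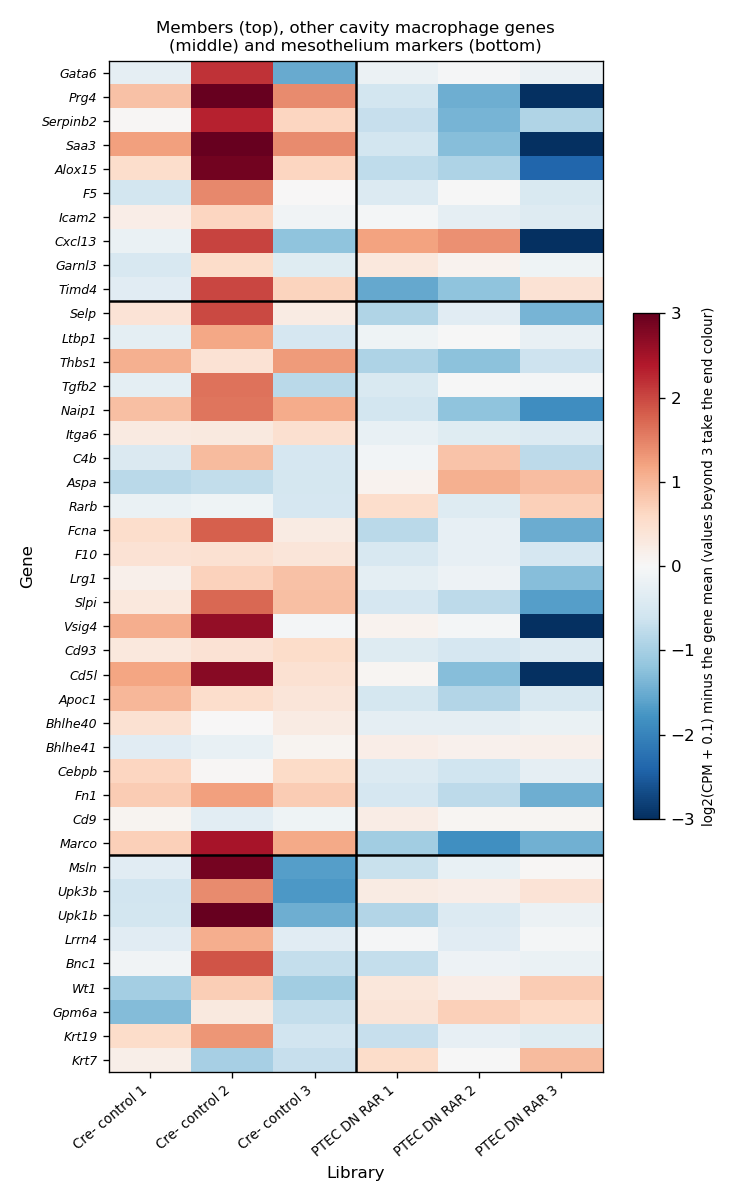
log2(CPM + 0.1) minus the mean of each gene over 6 libraries (red higher, blue lower, end colours at 3) for the 10 members (top), 23 other cavity macrophage genes (middle) and 9 mesothelial markers (bottom). The column of Cre- control replicate 2 is the reddest for the members and for Msln, Upk3b and Upk1b, and PTEC DN RAR replicate 3 is the bluest for Prg4, Saa3 and Cxcl13.

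Relatives of the members changed in both directions. Of 28 listed, 19 were tested, 4 fell and 7 rose, beside the 17.1% of all genes tested that fell and 23.6% that rose, with a median log2 fold change of 0.42. Without control 2, 2 fell and 2 rose, and without control 3, 1 fell and 2 rose. Beside Gata6, Gata5 rose from 0.204 ± 0.0972 to 0.940 ± 0.180 CPM (SD, n = 3 each). The difference on the log2 scale was 2.16 (SE 0.42, adjusted p = 0.00441). Gata3 and Gata2, which distal tubule and several leukocytes use, rose by 1.23 (adjusted p = 0.0274) and 1.16 (adjusted p = 0.041), and without control 2 their adjusted p values were 0.09 and 0.127. The 6 distal nephron markers summed to 1178 to 1652 CPM in controls and 4108 to 7859 CPM in PTEC DN RAR mice, with 5 of 6 higher, and their part in the Gata2 and Gata3 levels was not tested. Beside Saa3, Saa1 had at most 6 reads in any library, Saa4 at most 3 and Saa2 none in all 6 libraries. Beside Alox15, Alox5, which starts leukotriene synthesis, fell by 0.46 (SE 0.14, adjusted p = 0.0301) and Alox12 rose by 0.96 (SE 0.30, adjusted p = 0.0317). Without control 2 their adjusted p values were 0.0676 and 0.0989.

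Icam1, the inducible relative of Icam2, fell by 0.35 (SE 0.09, adjusted p = 0.0151), and Serpinb6a and Serpinb8 by 0.35 (adjusted p = 0.0461) and 0.34 (adjusted p = 0.025). Without control 2 the adjusted p of Serpinb6a was 0.0643, and under scaling to pan-leukocyte genes the calls of Icam1, Serpinb6a, Serpinb8 and Alox5 were lost. Cxcl12, a stromal chemokine, rose by 1.54 (SE 0.16, adjusted p = 0.000354), from 6.47 ± 1.08 to 18.8 ± 2.09 CPM (SD, n = 3 each). Fibroblast and stromal markers summed to 62.6 to 75.2 CPM in controls and 62.9 to 173 CPM in PTEC DN RAR mice. Of the 7 tested 5 rose, beside 23.6% of all genes tested, and their part in the Cxcl12 level was not tested. F8, the relative of F5, rose by 0.97 (SE 0.28, adjusted p = 0.0245), with an adjusted p of 0.0738 without control 2 and 0.053 with a replicate block. No relative was at least 2-fold higher in control 2 among those tested.

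The coagulation and fibrinolysis genes stand beside F5 and Serpinb2. Of 13 tested, 5 fell and 2 rose, again beside 17.1% and 23.6% of all genes tested. F7, coagulation factor VII, was at 11.6, 7.35 and 11.8 CPM in the controls and 2.27, 1.44 and 1.44 CPM in PTEC DN RAR mice, a log2 fold change of -2.58 (SE 0.26, adjusted p = 0.000324). F13a1, the A chain of factor XIII and also a monocyte marker, fell by 2.35 (SE 0.15, adjusted p = 0.000134). Platelets also carry F13a1 and factor V, and the 7 platelet markers, which include Pf4 and Ppbp, summed to 278 to 412 CPM in controls and 35.1 to 47.2 CPM in PTEC DN RAR mice, with 2 of 4 tested lower and none higher. Their part in these levels was not tested. Plaur, the urokinase receptor, and F10, factor X, fell by 0.86 (adjusted p = 0.000748) and 0.82 (adjusted p = 0.000735). Serpine2, a serpin that inhibits thrombin, and Plat, tissue plasminogen activator, rose by 1.36 (adjusted p = 0.00367) and 1.15 (adjusted p = 0.00486). All 8 endothelial markers rose too, as did all 4 podocyte markers, from sums of 50.5 to 79.9 CPM to sums of 144 to 176 CPM. Their part in the Serpine2 and Plat levels was not tested. None of the 13 coagulation and fibrinolysis genes was at least 2-fold higher in control 2, in contrast to F5 at 3.23-fold and Serpinb2 at 3.84-fold.

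Of 17 retinoid genes upstream of Gata6, 14 were tested, and 1 fell and 3 rose, where 17.1% of all genes tested fell and 23.6% rose. The median log2 fold change of the retinoid genes was 0.12. With single libraries left out 2 to 3 of them rose, with 2 without control 2. Stra6, through which cells take up retinol, rose by 2.05 (SE 0.32, adjusted p = 0.00174), from 0.717, 0.436 and 0.380 CPM to 2.53, 1.79 and 2.14 CPM. Rdh10, which oxidizes retinol, rose by 0.80 (SE 0.11, adjusted p = 0.000892). All 10 proximal tubule markers and 5 of 6 distal nephron markers rose too. The part of kidney epithelium in the Stra6 and Rdh10 levels was not tested. Dhrs3, a retinal reductase, fell by 0.47 (SE 0.09, adjusted p = 0.00461), and its adjusted p was 0.216 under scaling to pan-leukocyte genes. Aldh1a1, which makes retinoic acid, had the highest ratio of control 2 to the other controls among the retinoid genes tested, 3.22, at 1.59, 4.60 and 1.27 CPM, and was at 2.44, 2.99 and 1.86 CPM in PTEC DN RAR mice. Rara had a log2 fold change of -0.33 (SE 0.13, adjusted p = 0.0628), and of -0.49 (adjusted p = 0.0181) without control 2.

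Markers of other cells that CD11B+ preparations can hold are given beside all genes tested, of which 17.1% fell and 23.6% rose, 40.6% in either direction. All 10 proximal tubule markers rose, from sums of 504 to 642 CPM to sums of 1734 to 2557 CPM. Neutrophil markers summed to 313 to 663 CPM in controls and 164 to 253 CPM in PTEC DN RAR mice, with 5 of 9 tested lower. The 9 resident kidney macrophage markers, which include Adgre1 and C1qa, summed to 14031 to 15412 CPM in controls and 13249 to 16550 CPM in PTEC DN RAR mice, with 2 lower and 1 higher. The 11 genes of small cavity macrophages and MHC-II summed to 19345 to 25225 CPM in controls and 34491 to 53186 CPM in PTEC DN RAR mice, with 1 lower and 4 higher. This list joins Ccr2, Irf4 and other genes with the MHC-II genes H2-Aa, H2-Ab1, H2-Eb1 and Cd74. The paper reports high MHC-II on kidney-resident macrophages too, so the sum is not a level of small cavity macrophages. The 10 mast cell markers summed to 75.1 to 102 CPM in controls and 52.0 to 69.0 CPM in PTEC DN RAR mice, of the 2 tested 1 fell and 1 rose, and 6 of 10 had at most 3 reads in every library. None of the summed marker lists named in this paragraph was highest in control 2 by the 3.40-fold that the sum of the members showed. The part of these cells in the levels of the members was not tested.

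The genes whose profile over the 6 libraries was most like the mean profile of the members, by the smaller of 2 Pearson correlations (over all libraries, and after the mean of each genotype was subtracted), were Nup133, Plekhm3, Diexf, Zdhhc13, Prmt7, Cstf2, Gstcd, Ywhaq, Pank2 and Dgkd, with values of 0.957 to 0.988. Their ranges were narrow. Nup133, a nuclear pore subunit and the closest, ran from 31.1 CPM in PTEC DN RAR mouse 3 to 45.2 CPM in control 2. For single members, the gene most like each was Msln for Gata6, Nup85 for Prg4 and Saa3, Xrcc3 for Serpinb2, Zdhhc13 for Alox15, Gnl2 for F5, Rhno1 for Icam2, Hcls1 for Cxcl13, Myo1e for Garnl3 and Mrps2 for Timd4. Their correlations over all libraries ran from 0.984 for Msln to 0.998 for Nup85 with Prg4. These are descriptions over 6 libraries that share 1 high control.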

How the data were processed

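The authors sequenced RNA of CD11B+ kidney cells of 3 PTEC DN RAR and 3 Cre- control mice, with 1 library per mouse, and the authors deposited 1 table of raw counts per gene. The submitters' notes name STAR 2.5.0a, HTSeq 0.6.1 and GRCm38, and no strand setting is given in the sources used here. Alignments that were not unique, 42.9 to 47.8% of the entries in the counting output, did not enter the gene counts, which lowers genes with near copies. This is a share of entries and may differ from the share of reads. Of 46612 lines, 9 repeated ones were collapsed and 27 symbols turned into dates were restored, and 0 columns of other samples were present. No pair of libraries of a genotype agreed within sampling noise.

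Counts were filtered with filterByExpr (15440 genes), scaled by TMM and fitted with edgeR 4.0.16 in R 4.3.3 (glmQLFit, glmQLFTest), with Benjamini-Hochberg adjustment and calls at an adjusted p under 0.05. Alternatives used limma 3.58.1, DESeq2 1.42.0, other scalings and filters, a replicate block and leaving out each library. Positions and exon lengths came from GENCODE M21. Python 3.11, pandas 2.3.3 and matplotlib 3.10.9 were used.

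The members and lists were chosen with earlier results of these data known. Genes named are the members, up to 4 called genes per list and direction with the largest fold change, relatives of members, and the 10 genes most like their mean profile (mean of at least 1 CPM, prior count 2). Msln, Upk3b, Upk1b, Krt7, Fn1, Aldh1a1 and the ranking by control 2 were chosen after values were seen. Replicates are separate mice. The smallest exact permutation p with 3 mice against 3 is 0.1, and no such test was run on members. Counting limits cover counting error only. Muc16 was not analysed here, 1 gene of the retinoid list is counted but not reported here by name, and of 2 identifiers for Serpinb10 the more abundant was used.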

Additional observations from a re-analysis of the deposited data

How the results depend on the processing

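Prg4, Serpinb2, Saa3, Alox15, F5, Icam2 and Timd4 kept a lower mean in PTEC DN RAR mice in all 14 alternatives, whereas Gata6 changed direction in 1 (without control 2), Cxcl13 in 3 and Garnl3 in 2. The median log2 fold change of the members ran from -1.80 to -0.57 when single libraries were left out, the latter without control 2. Scaling to pan-leukocyte genes moved the median of all genes from 0.04 to 0.29 and gave 594 genes lower and 5282 higher, so that 89.9% of calls were higher against 58% in the fit reported (2636 lower, 3640 higher). Under it 0 retinoid genes and 0 relatives fell, 11 relatives and 3 other cavity macrophage genes rose. With single libraries left out, 1874 to 2824 genes fell and 2433 to 3699 rose. In these fits 14 to 15 other cavity macrophage genes fell and 1 to 2 rose, and 1 to 2 retinoid genes fell and 2 to 3 rose. Relatives that fell numbered 1 to 4 and those that rose 2 to 7. These were 2 lower and 2 higher without control 2, and 1 and 2 without control 3. They were 1 lower without PTEC DN RAR mouse 2, 2 lower without mouse 3 and 4 higher without mouse 1. Retinoid genes that fell numbered 2, against 1 reported, with no filter and in DESeq2, and the cause was not tested. Among the genes named, the calls lost were those of Cd5l, Alox5, Alox12, Serpinb6a, Gata2, Gata3 and F8 without control 2, of the last 6 and Serpinb8 without control 3, of Serpinb6a without control 1, of Gata2 and Alox12 without PTEC DN RAR mouse 1, of Cd5l, Alox5, Alox12, Serpinb6a, Serpinb8 and F8 without mouse 2, and of Alox5, Alox12, Serpinb8, Gata2, Gata3 and F8 without mouse 3. Those of Alox5 (adjusted p = 0.0622) and F8 (0.053) were lost with the replicate block, of Serpinb6a with library-size scaling (0.0587) and a minimum of 10 counts (0.0574), and of Dhrs3, Icam1, Alox5, Serpinb6a and Serpinb8 with pan-leukocyte scaling (0.216 to 0.65). Over all alternatives, 361 values of the 29 list genes followed kept their call, 43 lost it and none changed direction. The labels do not state that replicate numbers pair the mice. Correlations of deviations were -0.01, 0.21 and 0.03 for equal numbers and -0.18 to 0.15 for different numbers. With 3 mice per genotype these values cannot show whether libraries of the same number shared handling. With a replicate block 2606 genes fell and 3612 rose, and 2 retinoid genes fell. The median of the members was then -1.09 and the log2 fold change of Gata6 was -0.48. Gata6, with 5 reads in control 3, is the member with the fewest reads in a library. The largest standard error of the log2 fold change was that of Cxcl13, 1.01, against 0.84 for Gata6.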
